A study of Mus musculus with 2 samples.

Results

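Fatty acid oxidation and uncoupling genes are described here as a set of 36 genes, picked by symbol from the 31053 genes that were counted. The set holds 10 peroxisomal members, 15 mitochondrial members and 11 others, and all 36 symbols were found, each on 1 gene. The data are droplet-sequenced nuclei of the entorhinal cortex of male APP/PS1 mice, which carry transgenes that drive amyloid deposition. One library came from mice given OLE (N-oleoyl-leucine, labelled C18:1-Leu) at 25 mg/kg/day in alkaline drinking water between 15 and 18 months of age, and the other from mice that received the DMSO vehicle over the same months. Each library is a pool of 5 mice, all of them carrying the APP/PS1 genotype, so neither library shows the genes in a wild-type brain. There is 1 library per condition, so no test between the conditions is possible and the values below are given side by side with intervals that cover counting error only.

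Fatty acids are first joined to coenzyme A by acyl-CoA synthetases. Very long and branched chains enter peroxisomes through ABCD transporters and are shortened there, while long chains cross into mitochondria through the carnitine shuttle and are oxidised by acyl-CoA dehydrogenases, the trifunctional protein and thiolases, with the electrons passed on by the electron transfer flavoprotein. Carriers of the inner mitochondrial membrane, such as UCP2 and the adenine nucleotide translocases, let protons back into the matrix when fatty acids are present, which uncouples respiration from ATP synthesis. In the brain, fatty acid oxidation is mainly known from astrocytes, and N-acyl amino acids such as OLE are known as uncouplers that act through such carriers.

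The vehicle library held 6745 nuclei and 70845739 unique molecular identifiers (UMIs, the count of captured RNA molecules), and the OLE library 6173 nuclei and 69485537 UMIs, with 14 barcodes shared. After doublet removal 12298 nuclei remained. Clusters were named from marker genes as glutamatergic-like (1770 nuclei in vehicle and 1737 in OLE), GABAergic-like (324 and 351), oligodendrocyte-like (586 and 529), oligodendrocyte precursor (OPC)-like (101 and 84), microglia-like (338 and 270) and astrocyte-like (121 and 136), and these 6 are the main types of the text. The same rule named 63 endothelial-like and 172 vascular leptomeningeal-like nuclei. The endothelial-like cluster (21 nuclei in vehicle and 42 in OLE) also held markers of mural cells, with Rgs5 and Vtn among its leading genes. Per 1000000 UMIs, endothelial markers summed to 8631 in vehicle and 9574 in OLE there, and mural markers to 5143 and 6441. Its values below therefore cannot be given to endothelial cells alone. Of the others, 4495 nuclei led by Spag5 stayed unnamed and formed 2 clusters that each belonged mostly to 1 library (2263 nuclei of vehicle and 322 of OLE in one, 207 and 1703 in the other), 802 led by Fth1 and mitochondrially encoded genes stayed unnamed, and 419 with many UMIs stayed unnamed too. Median UMIs per nucleus in the named types ran from 2445 (microglia-like) to 20651 (glutamatergic-like) in vehicle, so that the neuronal values are by far the most precise. Levels are given as UMIs per 1000000 UMIs of the same library and cell type, written ppm, with exact Poisson intervals where shown in parentheses.

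Of the 36 members, 32 had at least 100 UMIs over both libraries in 1 or more of the 6 main types, which was taken as the least count for a ratio to be read. Cpt1a, Cpt2, Etfb and Ucp2 stayed below it in each type. Slc25a4 alone reached it in all 6. This left 91 of 216 pairs of member and cell type, with 31 members in glutamatergic-like, 25 in GABAergic-like, 15 in oligodendrocyte-like, 12 in astrocyte-like, 6 in microglia-like and 2 in OPC-like nuclei. Summed over all members, astrocyte-like nuclei had the highest level of the main types in both libraries (2745 ppm in vehicle and 2908 ppm in OLE) and glutamatergic-like nuclei the lowest (846 and 891 ppm), with microglia-like nuclei next to astrocyte-like ones (1603 and 1802 ppm). Endothelial-like nuclei (1846 and 2251 ppm) and vascular leptomeningeal-like nuclei (1690 and 2017 ppm) lay between these. Orders of cell types below are among the main types unless others are named.

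**Figure D1:**
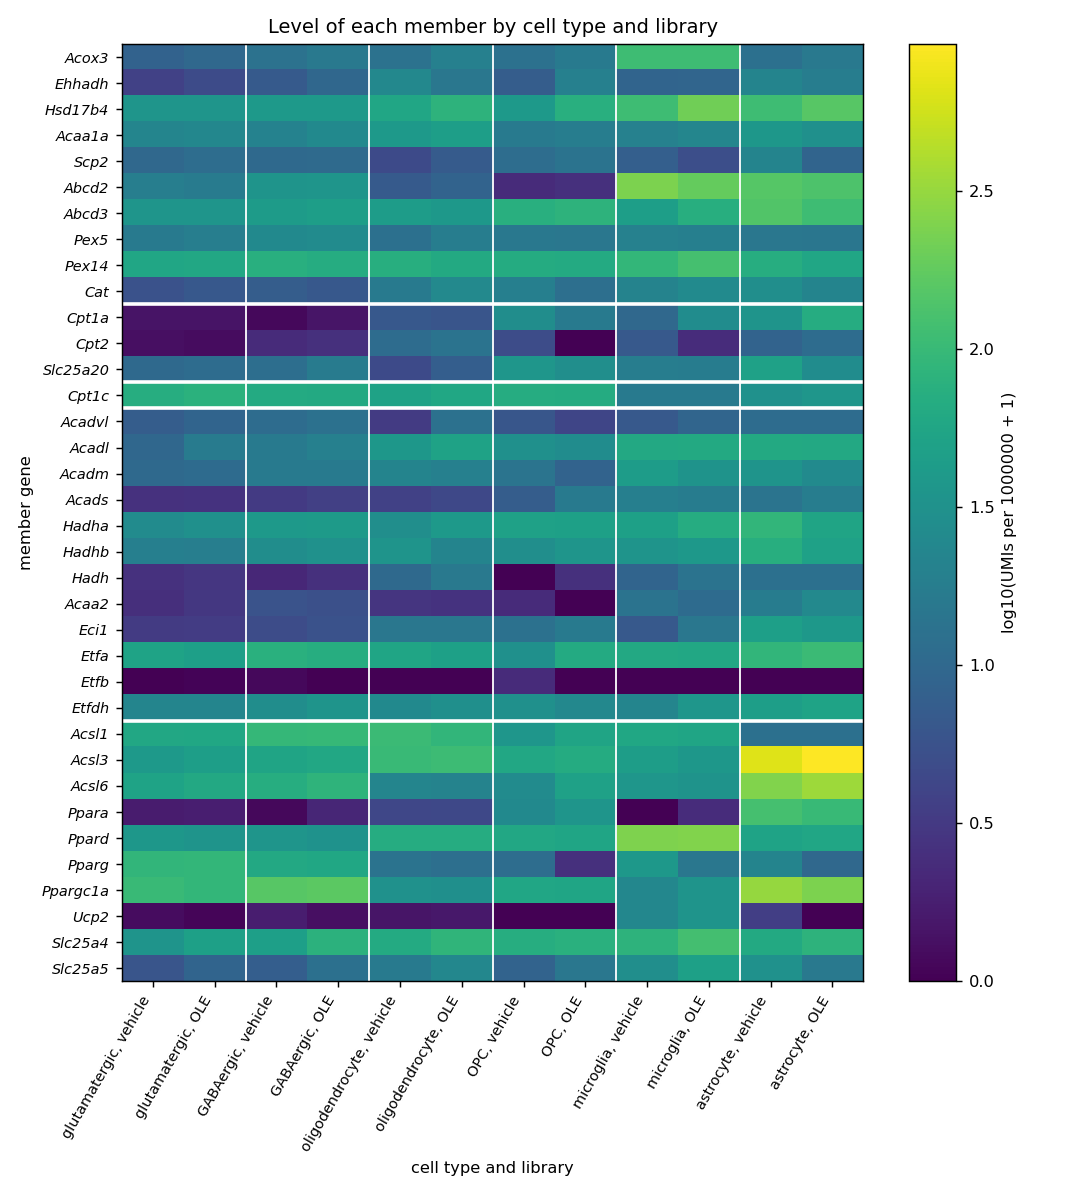
Level of each of the 36 members (rows) in the 6 main cell types of both libraries (columns), as log10 of UMIs per 1000000 plus 1. White lines separate peroxisomal, mitochondrial and other members and the cell types. The brightest cells are Acsl3 in astrocyte-like nuclei at 658 ppm in vehicle and 922 ppm in OLE.

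Among the peroxisomal members, 2 stood out in microglia-like nuclei, at least 4 times the median of the other types in both libraries. Acox3, an acyl-CoA oxidase for branched chains, was at 109 ppm in both libraries there and between 7.54 and 18.5 ppm in the other main types. Abcd2, a transporter of very long chain acyl-CoA, was at 238 ppm in vehicle and 182 ppm in OLE in microglia-like nuclei, at 153 and 135 ppm in astrocyte-like nuclei, and at 1 UMI in each library in OPC-like nuclei. Abcd3, the other transporter, was highest in astrocyte-like nuclei among the main types in both libraries (145 and 110 ppm), with 237 and 234 ppm in vascular leptomeningeal-like nuclei. Acaa1a, the peroxisomal thiolase, was highest in oligodendrocyte-like nuclei in both (37.7 and 45.5 ppm), although with intervals that overlapped those of astrocyte-like nuclei. Pex14, part of the docking complex for imported proteins, was among the most even members. Its levels lay between 56.1 and 121 ppm in every main type and library. Pex5, the import receptor, ranged from 11.5 to 26 ppm. Ehhadh, Scp2 and Cat, a bifunctional enzyme, a thiolase and catalase, lay between 2.78 and 28.3 ppm.

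Of the 15 mitochondrial members, Cpt1a, Hadhb, Acaa2, Eci1, Etfa and Etfdh were highest in astrocyte-like nuclei in both libraries. Cpt1a, which makes acylcarnitine and limits the entry of long chains, was at 33.4 ppm (21.8 to 49) in vehicle and 67.5 ppm (51.4 to 87.1) in OLE in astrocyte-like nuclei, at 27.3 and 15.7 ppm in OPC-like nuclei, and at or below 0.465 ppm in both neuronal types. Acaa2, the mitochondrial thiolase, was at 16.7 and 24 ppm in astrocyte-like nuclei and between 1.5 and 4.79 ppm in neuronal ones, on 13 and 21 astrocytic UMIs. Microglia-like nuclei came next for this gene, at 12.5 and 9.74 ppm. Eci1, which handles double bonds, was at 46.3 and 36.6 ppm in astrocyte-like nuclei and at 2.24 and 2.38 ppm in glutamatergic-like ones. Etfdh, which hands the electrons to ubiquinone, was less uneven, between 21.1 and 51.5 ppm. Cpt2, the inner part of the shuttle, was highest in oligodendrocyte-like nuclei, on 22 UMIs in each library (10.1 and 12.4 ppm). Hadh, the dehydrogenase for shorter chains, lay at or below 14.6 ppm in all 6 types, and Acads, for short chains, at or below 18.2 ppm. Acadm, for medium chains, was highest in microglia-like nuclei in both libraries (42 and 32 ppm). Cpt1c, the form of the enzyme known from neurons, had the opposite order, with 68.5 ppm in vehicle and 76.3 ppm in OLE in glutamatergic-like nuclei against 15.9 and 15.3 ppm in microglia-like nuclei. Its 67.5 and 65.7 ppm in OPC-like and 50.2 and 57.9 ppm in oligodendrocyte-like nuclei were close to the neuronal values. Slc17a7, a glutamatergic marker, was at 79.2 and 73.6 ppm in oligodendrocyte-like nuclei, against 161 and 218 ppm in glutamatergic-like ones. The part of neuronal RNA in the glial levels was not tested.

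Etfa, a subunit of the electron transfer flavoprotein, had the most UMIs of the mitochondrial members in both neuronal types, without regard to gene length, at 51.4 and 46.2 ppm in glutamatergic-like and 75.3 and 69 ppm in GABAergic-like nuclei. Etfb, the subunit it pairs with, had 3 UMIs in all glutamatergic-like nuclei and 2 in all other named types together. In the GENCODE annotation, 99.7% of Etfb lies inside the gene model Gm45233 on the same strand, and reads that match more than 1 gene are not counted by Cell Ranger, so the count of Etfb cannot be read as a level. Scp2 (52% of its length, with Podn) and Acsl3 (27%, with Utp14b) also overlap a gene on their own strand, and their counts are uncertain to that extent.

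The regulators marked different cell types. Ppara, the nuclear receptor that switches on fatty acid oxidation, was at 123 ppm (100 to 151) in vehicle and 98.4 ppm (78.7 to 122) in OLE in astrocyte-like nuclei, at 24.7 and 34.4 ppm in OPC-like nuclei and below 4 ppm in the other main types, while vascular leptomeningeal-like nuclei had 107 and 71.2 ppm. Ppard was highest in microglia-like nuclei (244 and 249 ppm), with 31.3 to 68 ppm in the other types. Pparg, known from adipocytes, was highest in glutamatergic-like nuclei (89.4 and 91.3 ppm), followed by GABAergic-like nuclei (60.5 and 57.4 ppm). Ppargc1a, a coactivator of mitochondrial genes, was highest in astrocyte-like nuclei (312 and 238 ppm) and next in GABAergic-like nuclei (156 and 165 ppm). The acyl-CoA synthetases Acsl3 (658 and 922 ppm) and Acsl6 (255 and 334 ppm) were also at least 4 times the median of the other types in astrocyte-like nuclei. Acsl1 was the reverse, at 11.6 and 11.4 ppm in astrocyte-like nuclei and between 35.1 and 104 ppm in the others.

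Ucp2, the uncoupling protein of immune cells, was highest in microglia-like nuclei among the 6 types. It had 20 UMIs in vehicle and 24 in OLE there, or 22.7 ppm (13.9 to 35.1) and 33.4 ppm (21.4 to 49.7). As a log2 ratio (OLE over vehicle) this is 0.56 (-0.36 to 1.49), and -0.93 with each nucleus thinned to 1000 UMIs (12 and 5 UMIs), so that the libraries cannot be ordered. Both neuronal types were below 0.73 ppm in each library, oligodendrocyte-like nuclei had 1 UMI per library, and astrocyte-like nuclei had 2 and 0. In OPC-like nuclei 0 UMIs were counted, which at 3 counts allows up to 3.9 ppm in vehicle and 4.7 ppm in OLE. Outside the 6 types, endothelial-like nuclei had more, 71.9 and 75.8 ppm on 12 and 16 UMIs. In all, 11 members were at least 4 times the median of the other types in 1 type and in both libraries: 6 in astrocyte-like, 4 in microglia-like and 1 in glutamatergic-like nuclei.

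Levels of different genes can be compared only per length of the gene, since longer pre-mRNA gives more sites where a read can start. Per kilobase of gene, Slc25a4 had the highest level of all members in glutamatergic-like nuclei, 7.48 ppm per kb in vehicle and 10.5 in OLE, followed by Cpt1c with 4.42 and 4.93. In astrocyte-like nuclei Slc25a4 (13.7 and 18.1 ppm per kb) and Acsl3 (13.2 and 18.5) lay close together at the top.

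The peroxisomal and mitochondrial members were then summed. Of the main types, microglia-like nuclei had the highest peroxisomal sum, 667 ppm in vehicle and 769 ppm in OLE, and astrocyte-like nuclei the highest mitochondrial sum, 577 and 547 ppm. Glutamatergic-like nuclei had the lowest of both. Endothelial-like nuclei (647 and 891 ppm) had a higher mitochondrial sum than astrocyte-like ones in both libraries. The peroxisomal share of these UMIs was 65.7% (exact binomial interval 62.4 to 68.8) in vehicle and 65.9% (62.6 to 69.1) in OLE in microglia-like nuclei. In the other 5 main types it lay between 48.3% and 56.2%, and every one of these intervals ended below the microglial ones. Abcd2 supplied 35.8% of the microglial peroxisomal UMIs in vehicle, whereas in OLE Hsd17b4 was the largest part, with 27.1%. Endothelial-like nuclei had a lower share, with 38.3% and 33.6% peroxisomal, on 175 and 283 UMIs. Acadl supplied 34.3% of their mitochondrial UMIs in vehicle and 34.6% in OLE. The share counts UMIs of genes of different length, so it can be compared between cell types but does not rank the compartments.

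**Figure D2:**
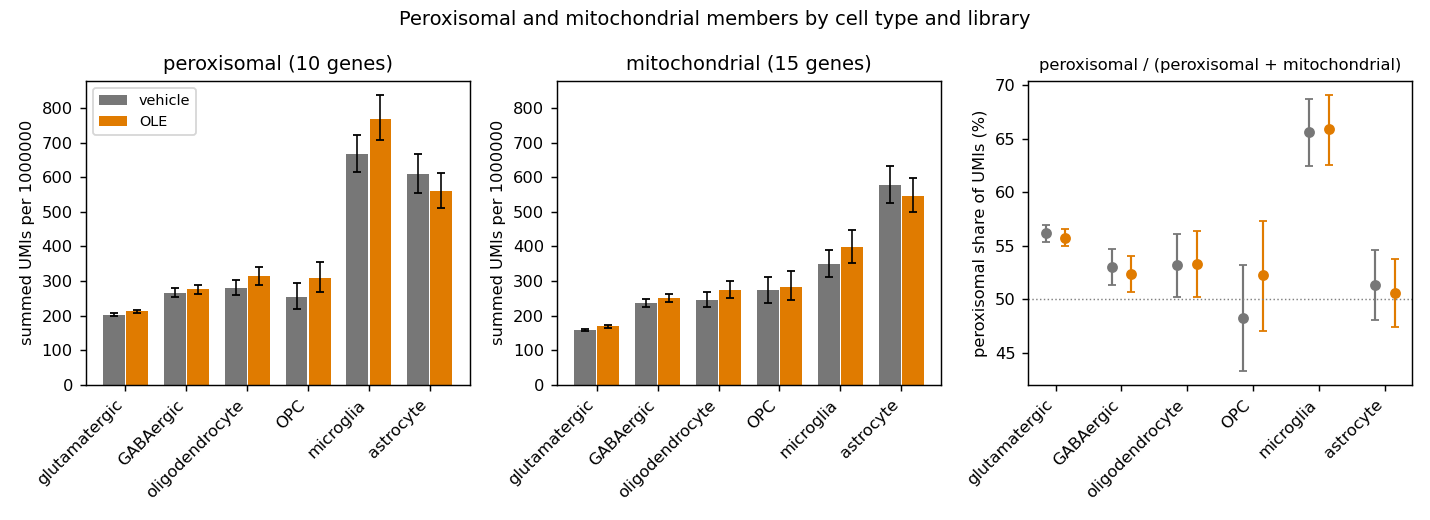
Summed level of the 10 peroxisomal and the 15 mitochondrial members (UMIs per 1000000, bars with 95% Poisson intervals) and the peroxisomal share of their UMIs (percent, points with 95% exact binomial intervals) in vehicle and OLE nuclei of each type. Microglia-like nuclei sit at 65.7% and 65.9%, above the other types shown, and the intervals of the share overlap between the libraries in every type.

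In the 6 main types the interval of the difference in this balance between the libraries included 0. The share in OLE minus that in vehicle was 0.25 percentage points (-4.30 to 4.79) in microglia-like, -0.40 (-1.55 to 0.75) in glutamatergic-like, -0.70 (-3.08 to 1.69) in GABAergic-like, 0.15 (-4.09 to 4.40) in oligodendrocyte-like, -0.73 (-5.31 to 3.84) in astrocyte-like and 3.97 (-3.21 to 11.1) in OPC-like nuclei. No difference in balance was therefore detectable in these types at this depth. Without the most counted member of each compartment the difference in glutamatergic-like nuclei was -2.20 points. In the Fth1-led unnamed nuclei the share was 31.5% in vehicle and 39.7% in OLE, a difference of 8.18 points (3.13 to 13.2), with a log2 ratio of the mitochondrial sum of -0.31 (-0.50 to -0.12). Acadl alone supplied 53.1% and 50.7% of the mitochondrial UMIs of these nuclei. Endothelial-like and vascular leptomeningeal-like nuclei had mitochondrial sums higher in OLE, with log2 ratios of 0.46 (0.11 to 0.82) and 0.38 (0.17 to 0.59). In the main types both sums were slightly higher in OLE in 5 of the 6. In microglia-like nuclei the peroxisomal sum had a log2 ratio of OLE to vehicle of 0.21 (0.04 to 0.38), and of 0.46 without Abcd2, its most counted member. Hsd17b4 alone was at 0.94, and the sum without it was not taken. By role, the beta-oxidation enzymes, which include Hsd17b4, were at 0.48 (0.22 to 0.75). The transporters were at -0.16 (-0.45 to 0.12) and the import genes at 0.34 (-0.08 to 0.76). The mitochondrial sum had a ratio of 0.19 (-0.05 to 0.43). In glutamatergic-like nuclei the log2 ratios of the peroxisomal and mitochondrial sums were 0.07 (0.02 to 0.11) and 0.09 (0.04 to 0.14). The median over all genes there was 0.07, and with that median set to 0 the peroxisomal sum was at -0.0018. Astrocyte-like nuclei were on the other side, with -0.12 (-0.31 to 0.07) and -0.08 (-0.27 to 0.11).

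For single members the largest differences between the libraries were in a few genes. Of the 91 pairs, 6 were at least 1.5-fold higher in OLE and 2 at least 1.5-fold lower. In glutamatergic-like nuclei 2 of 31 members were higher, Acadl and Slc25a5, and 0 lower, against 3.80% and 0.144% of the 13890 genes with as many UMIs. In GABAergic-like nuclei 3 of 25 were higher, Slc25a4, Slc25a5 and Slc25a20, and 0 lower, against 5.28% and 0.322% of 9634 genes. Microglia-like nuclei had 1 of 6 higher, Hsd17b4, and 0 lower, against 2.07% and 1.33% of 3676 genes. In oligodendrocyte-like nuclei 1 of 15 was lower, Hadhb, and 0 higher, against 0.771% and 2.96% of 5838 genes. Astrocyte-like nuclei had 1 of 12 lower, Hadha, and 0 higher, against 2.03% and 2.42% of 3012 genes. In OPC-like nuclei neither of the 2 members, Abcd3 and Slc25a4, passed the fold in either direction, against 2.71% higher and 2.13% lower of 2584 genes. With counts this small, a share of members differs from that of all genes by 1 or 2 genes only.

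**Figure D3:**
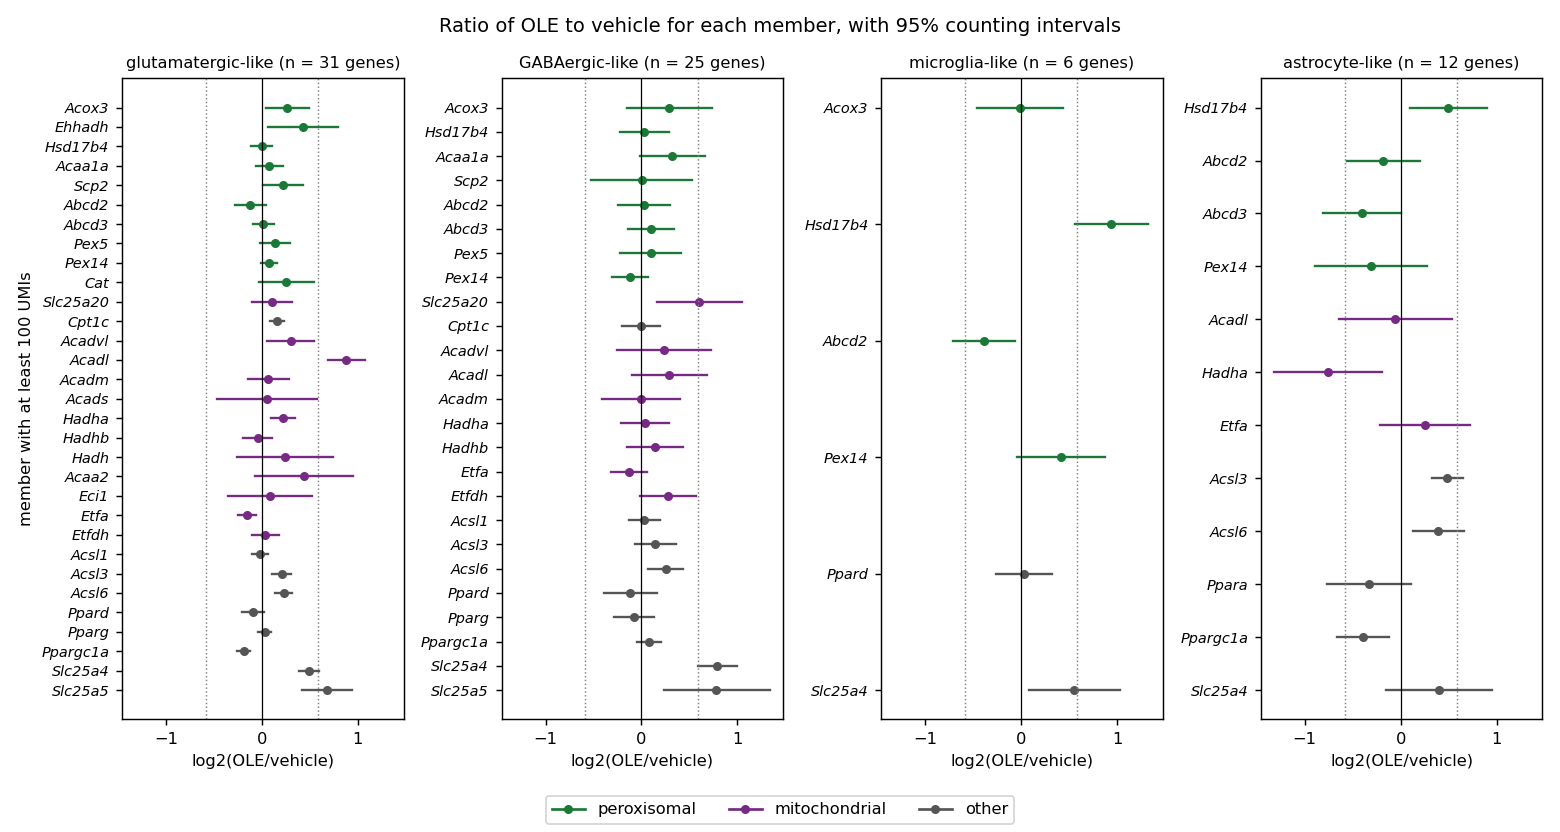
Log2 ratio of OLE to vehicle (horizontal axis) for each member with at least 100 UMIs in 4 cell types, with 95% counting intervals. Dotted lines mark 1.5-fold. Most points lie near 0, with Acadl at 0.88 in glutamatergic-like, Slc25a4 at 0.79 in GABAergic-like, Hsd17b4 at 0.94 in microglia-like and Hadha at -0.75 in astrocyte-like nuclei.

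The adenine nucleotide carriers were higher in OLE in both neuronal types. Slc25a4 (ENSMUSG00000031633, GRCm38 chromosome 8, 46206797 to 46211284), the adenine nucleotide translocase of heart and brain, had 1362 UMIs in vehicle and 1768 in OLE in glutamatergic-like nuclei, or 33.6 ppm (31.8 to 35.4) and 47.3 ppm (45.1 to 49.5). In GABAergic-like nuclei it had 318 and 515 UMIs, or 46.1 ppm (41.2 to 51.5) and 79.8 ppm (73.1 to 87). Both pairs of intervals were apart. The log2 ratios were 0.49 (0.39 to 0.60) and 0.79 (0.59 to 1.00). In the 4 glial types the ratio was above 0 in each, from 0.13 (-0.47 to 0.72) in OPC-like to 0.55 (0.08 to 1.03) in microglia-like nuclei. When microglia-like nuclei were split further, the ratio was 0.25 (-0.60 to 1.09) in homeostatic-like nuclei. It was 0.38 (-0.31 to 1.07) in those with markers of disease-associated microglia. A small unnamed subcluster, with 8 nuclei in each library, held 5 of the vehicle and 22 of the OLE Slc25a4 UMIs of microglia-like nuclei. Its leading genes included Snhg11, Miat and Mir124a-1hg. Of the markers, 1 of 15 for disease-associated and 0 of 9 for homeostatic microglia were raised in it. What these nuclei are was not tested. Slc25a5 (ENSMUSG00000016319, chromosome X, 36795651 to 36798807), the translocase of most tissues, had fewer UMIs, with 5.03 ppm (4.36 to 5.76) and 8.05 ppm (7.16 to 9.01) in glutamatergic-like and 6.67 ppm (4.89 to 8.9) and 11.5 ppm (9.01 to 14.4) in GABAergic-like nuclei. These are log2 ratios of 0.68 (0.42 to 0.94) and 0.78 (0.23 to 1.34). Astrocyte-like nuclei were the exception, with 24 UMIs in vehicle and 13 in OLE, or 30.9 and 14.9 ppm.

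**Figure D4:**
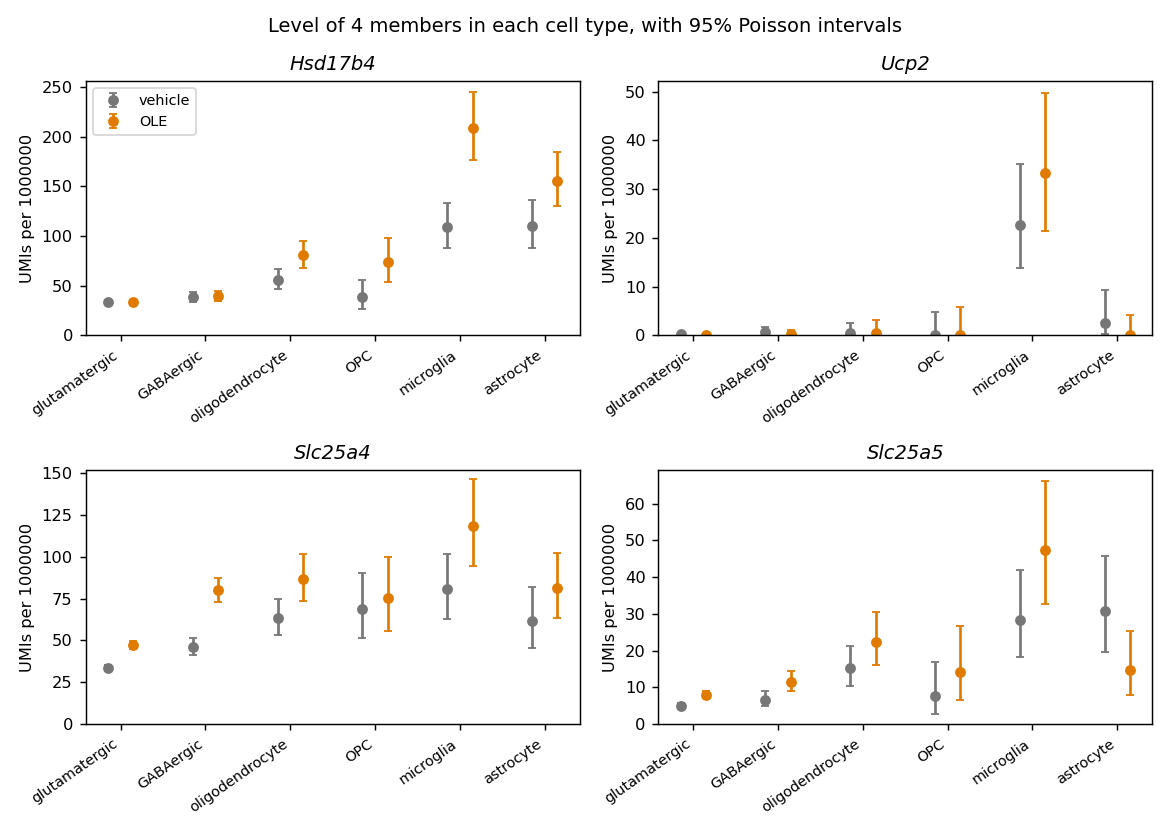
Levels of Hsd17b4, Ucp2, Slc25a4 and Slc25a5 (UMIs per 1000000, points with 95% Poisson intervals) in both libraries for each cell type. The OLE point is above the vehicle point for Slc25a4 in all 6 types, and for Slc25a5 in all but astrocyte-like nuclei.

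In neurons the ratio was above 0 across clusters. Slc25a4 was higher in OLE in 10 of 10 glutamatergic-like clusters, with log2 ratios from 0.29 to 0.84, and in 2 of 2 GABAergic-like clusters (0.30 and 0.99). Slc25a5 was higher in 9 of 9 glutamatergic-like clusters that held at least 30 of its UMIs, from 0.22 to 0.95. The clusters come from the same 2 libraries and are no replicates of the treatment. Other genes of the inner mitochondrial membrane lay in the same direction. Of the respiratory chain genes, 22 of 24 in glutamatergic-like and 19 of 21 in GABAergic-like nuclei had ratios above 0, with medians of 0.23 and 0.30 against 0.07 and 0.08 over all genes, of which 67.1% and 65.4% were above 0. Of the respiratory chain genes 3 and 5 passed 1.5-fold, against 3.80% and 5.28% of all genes. These were Ndufa4 (0.75 and 0.90), Uqcrb and Ndufb9 in both types and Atp5g1 and Atp5g3 in GABAergic-like nuclei. The percentage of mitochondrially encoded UMIs was about equal, 0.348% in vehicle and 0.316% in OLE in glutamatergic-like and 0.486% and 0.461% in GABAergic-like nuclei. GABAergic markers summed to 170 ppm in vehicle and 284 ppm in OLE in glutamatergic-like nuclei, with 12 of 12 higher in OLE and none at 0. In GABAergic-like nuclei 8 of these 12 were higher in OLE, such as Sst (182 and 480 ppm) and Vip (126 and 296 ppm). The others were lower, such as Erbb4 (10976 and 9738 ppm) and Adarb2 (5329 and 4837 ppm). The part of these markers in the neuronal differences was not tested. Slc25a4 and Slc25a5 are the shortest members, at 4.49 and 3.16 kb, and the part of gene length was not tested either. With each nucleus thinned to 1000 UMIs, Slc25a4 was at 0.38 in glutamatergic-like and at 0.01 in GABAergic-like nuclei, the latter on 22 and 24 UMIs, and Slc25a5 in glutamatergic-like nuclei at 1.93 on 4 and 15. Summed over Ucp2, Slc25a4 and Slc25a5, the log2 ratio was 0.51 (0.42 to 0.61) in glutamatergic-like, 0.77 (0.58 to 0.97) in GABAergic-like, 0.60 (0.23 to 0.96) in microglia-like, 0.47 (0.17 to 0.77) in oligodendrocyte-like, and 0.22 (-0.33 to 0.77) in OPC-like nuclei. Astrocyte-like nuclei gave 0.01 (-0.45 to 0.49). The microglial sum includes the small unnamed subcluster, which held 5 and 22 UMIs of Slc25a4 and 0 and 8 of Slc25a5. The value in oligodendrocyte-like nuclei rests on how clusters were named. Under the first version of the naming rule it was -0.08, and Slc25a4 there was at -0.09 in place of 0.45. That rule counted the Spag5-led cluster of 2263 vehicle and 322 OLE nuclei as oligodendrocyte-like, and not the other Spag5-led cluster. Library and cluster therefore cannot be told apart in these 2 values.

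The start regions of both translocases are shown because these 2 genes had ratios in the same direction in neurons. Each is the RefSeq window of 250 bases before and 50 after the gene's start (GRCm38.p6), written 5′ to 3′ on the strand of the gene, and capitals mark TATAAG. The RefSeq start of Slc25a5 lies before the GENCODE one, so that its window ends before the gene's GENCODE coordinates begin. That of Slc25a4 lies inside the GENCODE gene, whose 5′ end is at 46211284. Most of the Slc25a4 window, TATAAG included, is therefore within that gene.
Slc25a4, chr8:46211013-46211312, minus strand: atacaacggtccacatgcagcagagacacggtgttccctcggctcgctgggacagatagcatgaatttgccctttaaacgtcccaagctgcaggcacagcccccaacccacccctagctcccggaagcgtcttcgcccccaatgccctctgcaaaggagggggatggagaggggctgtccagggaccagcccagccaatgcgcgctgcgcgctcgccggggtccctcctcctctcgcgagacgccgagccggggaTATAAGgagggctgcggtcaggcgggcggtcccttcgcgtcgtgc
Slc25a5, chrX:36795347-36795646, plus strand: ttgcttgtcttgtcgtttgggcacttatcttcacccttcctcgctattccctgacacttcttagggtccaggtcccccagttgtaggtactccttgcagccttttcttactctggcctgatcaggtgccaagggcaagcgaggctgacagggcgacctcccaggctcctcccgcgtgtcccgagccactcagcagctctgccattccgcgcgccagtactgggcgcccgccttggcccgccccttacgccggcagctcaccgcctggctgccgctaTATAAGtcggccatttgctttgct
TATAAG, searched on the gene's strand only and chosen after these sequences had been seen, begins at base 6 after the start in Slc25a4 and at base 27 in Slc25a5. It is in 3 of the 33 member windows, the third being that of Pex5, and in 4.58% of 27025 windows of all genes. Of 5 other motifs searched on both strands, a direct repeat of AGGTCA with 1 base between (the element PPARs bind) was in 0 of 33 member windows and 0.0444% of all, TGACGTCA in 0 and 1.88%, CACGTG in 0 and 7.24%, GCGCATGC in 4 (Acadm, Etfa, Etfdh and Ppara) and 2.80%, and TCAAGGTCA, the site of estrogen-related receptors, in 1 (Acsl6) and 0.407%. TCAAGGTCA holds AGGTCA. These matches describe the letters in the windows and nothing more.

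Hsd17b4 (ENSMUSG00000024507, chromosome 18, 50128201 to 50196269) codes for the peroxisomal bifunctional enzyme that carries out the hydration and dehydrogenation steps on very long and branched chains. It had the highest ratio among the 6 members with at least 100 UMIs in microglia-like nuclei. There it had 96 UMIs in vehicle and 150 in OLE, or 109 ppm (88.3 to 133) and 209 ppm (177 to 245), a log2 ratio of 0.94 (0.56 to 1.32). It was also higher in OLE in the other glial types, with 111 and 156 ppm in astrocyte-like (0.49, 0.09 to 0.90), 56.2 and 80.9 ppm in oligodendrocyte-like (0.53, 0.17 to 0.89) and 39 and 73.6 ppm in OPC-like nuclei (on 30 and 47 UMIs). In neurons the libraries were level, with 33.9 and 33.8 ppm in glutamatergic-like and 38.6 and 39.4 ppm in GABAergic-like nuclei, so that the log2 ratio there is bounded between -0.11 and 0.11 in the former. In vehicle the microglial and astrocytic levels did not differ beyond their intervals. In OLE the microglial level was the higher, with intervals that overlap in a narrow range (177 to 184).

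The microglial difference was seen in both subclusters that could be named. These are nuclei of the same libraries and no replicates of the treatment. In homeostatic-like microglia (165 nuclei in vehicle and 138 in OLE) Hsd17b4 was at 82.4 ppm (57.7 to 114) and 176 ppm (134 to 226), and in microglia with markers of disease-associated microglia (DAM-like, 160 and 116 nuclei) at 138 ppm (104 to 178) and 252 ppm (198 to 315). The log2 ratios were 1.09 (0.47 to 1.73) and 0.87 (0.36 to 1.39). Within each library the DAM-like level was the higher one, with intervals that overlapped. Abcd2 was also higher in DAM-like than in homeostatic-like nuclei in both libraries, 305 against 188 ppm in vehicle and 242 against 141 ppm in OLE, and its ratio between libraries was below 0 in both (-0.42, -0.96 to 0.12, in homeostatic-like and -0.33, -0.77 to 0.10, in DAM-like nuclei). In all microglia-like nuclei Abcd2, the lowest ratio of the 6 members counted there, was at -0.39 (-0.71 to -0.07), so that its own direction was opposite to that of Hsd17b4. Acox3 was level, with -0.01 (-0.46 to 0.44). The other members in microglia rest on few UMIs: Cpt1a had 8 and 19 (9.08 and 26.4 ppm), Pparg 33 and 10 (37.5 and 13.9 ppm) and Abcd3 40 and 51 (45.4 and 71 ppm). Microglia-like nuclei also held neuronal RNA, with Slc17a7 at 107 ppm in vehicle and 113 ppm in OLE. The 14 glutamatergic markers summed to 1037 and 956 ppm, 6 of them higher in OLE and none at 0. Microglial markers were 11648 and 13501 ppm, with 13 of 14 higher in OLE. Their part in the result was not tested. With the microglia-like nuclei richest in glutamatergic markers left out, Hsd17b4 was at 0.99.

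Acadl (ENSMUSG00000026003, chromosome 1, 66830839 to 66863277) codes for the long-chain acyl-CoA dehydrogenase, which starts mitochondrial oxidation of long and branched chains. It had 356 UMIs in vehicle and 603 in OLE in glutamatergic-like nuclei, or 8.77 ppm (7.88 to 9.73) and 16.1 ppm (14.9 to 17.5), with a log2 ratio of 0.88 (0.69 to 1.07). Its ratio was above 0 in 9 of 9 glutamatergic-like clusters with at least 30 UMIs, from 0.15 to 1.39. The lowest of these was in the cluster where Acadl was most abundant (29.9 and 33.3 ppm). In GABAergic-like nuclei it was at 15.1 and 18.4 ppm (0.29, -0.10 to 0.68), in oligodendrocyte-like nuclei at 35.9 and 50.6 ppm (0.49, 0.04 to 0.95), and in astrocyte-like nuclei at 63 and 60.6 ppm (-0.05, -0.64 to 0.54). The other 3 acyl-CoA dehydrogenases were nearer to 0 in glutamatergic-like nuclei, with 0.30 (0.06 to 0.54) for Acadvl, 0.07 (-0.14 to 0.28) for Acadm and 0.05 (-0.47 to 0.57) for Acads. Acadl was most abundant outside the named neuronal and glial types. The Fth1-led unnamed nuclei, in which 9.47% of UMIs in vehicle and 8.24% in OLE were mitochondrially encoded, had 339 and 261 ppm, and endothelial-like nuclei 222 and 308 ppm. When each nucleus was thinned to 1000 UMIs, which leaves 21 and 25 Acadl UMIs in glutamatergic-like nuclei, the log2 ratio was 0.28.

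Among members with at least 100 UMIs, the lowest ratio in glutamatergic-like nuclei was that of Ppargc1a, at 103 ppm (99.5 to 106) and 90 ppm (87 to 93.1), or -0.19 (-0.26 to -0.12). It was also lower in OLE in astrocyte-like nuclei (312 and 238 ppm, -0.39, -0.67 to -0.12) and not in GABAergic-like nuclei (156 and 165 ppm, 0.08, -0.04 to 0.20). By the same limit Etfa had the lowest ratio in GABAergic-like nuclei, with -0.13 (-0.31 to 0.06). Slc25a20, the carnitine-acylcarnitine carrier, was at 10.7 and 16.3 ppm there on 74 and 105 UMIs, a log2 ratio of 0.60 (0.16 to 1.05) that lies just past 1.5-fold. It was short of that fold without doublet removal (0.38), with the median of all genes at 0 (0.52) and after thinning (0.30). The thinned value rests on 3 and 4 UMIs and cannot be read as a ratio. Just short of the fold were Hsd17b4 in oligodendrocyte-like (0.53) and Slc25a4 in microglia-like nuclei (0.55).

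Hadha and Hadhb code for the alpha and beta subunits of the trifunctional protein, which performs the last 3 steps of long-chain oxidation. They lie head to head on chromosome 5 (ENSMUSG00000025745, 30118304 to 30155162, minus strand, and ENSMUSG00000059447, 30155248 to 30184593, plus strand), so their RefSeq start windows share 228 bases. The window of Hadha is shown with these shared bases in capitals, because the 2 genes share it while their ratios parted in some cell types. The RefSeq start of Hadha lies inside its GENCODE gene, and so does most of this window.
Hadha, chr5:30154931-30155230, minus strand: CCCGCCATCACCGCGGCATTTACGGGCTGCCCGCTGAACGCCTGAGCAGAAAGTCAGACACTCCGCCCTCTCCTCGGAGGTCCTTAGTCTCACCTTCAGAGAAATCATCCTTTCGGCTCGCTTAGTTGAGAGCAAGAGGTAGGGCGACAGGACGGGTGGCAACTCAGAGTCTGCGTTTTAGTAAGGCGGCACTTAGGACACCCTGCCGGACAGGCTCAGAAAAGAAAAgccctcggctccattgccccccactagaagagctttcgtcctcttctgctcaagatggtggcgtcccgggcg
In astrocyte-like nuclei both were lower in OLE. Hadha had 69 and 46 UMIs, or 88.7 ppm (69 to 112) and 52.6 ppm (38.5 to 70.2), a log2 ratio of -0.75 (-1.32 to -0.19), and Hadhb had 56 and 43, or 72 and 49.2 ppm (-0.55, -1.16 to 0.05). In oligodendrocyte-like nuclei they went apart, with 28.5 and 38.2 ppm for Hadha (0.42, -0.10 to 0.94) and 33.1 and 20.8 ppm for Hadhb (-0.67, -1.29 to -0.08). Hadhb had 72 and 37 UMIs there, and its ratio was short of 1.5-fold without doublet removal (-0.42), without the nuclei richest in glutamatergic markers (-0.48), under the first naming rule (-0.49) and after thinning (-0.13). Thinning left 17 and 14 of these UMIs. Hadha in astrocyte-like nuclei was at -1.58 after thinning, on 16 and 6 UMIs. Glutamatergic-like nuclei gave 25.6 and 29.8 ppm for Hadha (0.22, 0.09 to 0.34) and 18.2 and 17.6 ppm for Hadhb (-0.05, -0.20 to 0.11).

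In astrocyte-like nuclei the synthetases were higher in OLE. Acsl3 had 512 and 806 UMIs, or 658 ppm (602 to 718) and 922 ppm (860 to 988), and Acsl6 had 198 and 292, or 255 ppm (220 to 293) and 334 ppm (297 to 375). The log2 ratios were 0.49 (0.32 to 0.65) and 0.39 (0.13 to 0.66), below 1.5-fold. The start window of Acsl6 is shown for its match to TCAAGGTCA, in capitals, which lies on the opposite strand 167 bases before the start.
Acsl6, chr11:54303574-54303873, plus strand: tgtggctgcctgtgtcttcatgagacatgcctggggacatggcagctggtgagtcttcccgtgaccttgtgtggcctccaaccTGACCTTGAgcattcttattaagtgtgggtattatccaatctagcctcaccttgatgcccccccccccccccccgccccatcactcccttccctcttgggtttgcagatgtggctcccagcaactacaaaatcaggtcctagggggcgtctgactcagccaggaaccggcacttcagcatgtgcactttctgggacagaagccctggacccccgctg
Cpt1a was at 26 UMIs in vehicle and 59 in OLE in astrocyte-like nuclei, a log2 ratio of 1.01 (0.33 to 1.74) on fewer than 100 UMIs. Ppara (-0.33, -0.76 to 0.11), Abcd2 (-0.18, -0.56 to 0.20) and Abcd3 (-0.40, -0.81 to 0.00) were below 0. Astrocyte markers were themselves higher in OLE in 8 of 12 cases and summed to 30607 and 32532 ppm, with Aqp4 at 297 and 502 ppm and Gja1 at 459 and 704 ppm. The others were lower, such as Sox9 (135 and 106 ppm) and Bmpr1b (958 and 892 ppm). Their part in these values was not tested.

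Other genes of the same pathways, taken from lists written with general knowledge, showed smaller differences. Of 17 other peroxisomal lipid genes with enough UMIs in glutamatergic-like nuclei (such as Gnpat and Agps) none passed 1.5-fold and the median log2 ratio was 0.04. Of 11 other peroxins none passed, with a median of 0.01. Of 17 other genes of mitochondrial fatty acid oxidation none passed, with a median of -0.05, and of 11 other regulators none, with a median of -0.04. Among 9 genes of fatty acid uptake and activation 1 passed, Fabp3, a fatty acid binding protein, at 6.9 and 10.4 ppm (0.59, 0.36 to 0.82). Of 6 other carriers of the inner membrane none passed, with a median of 0.11. In GABAergic-like nuclei the same lists had medians of 0.03, 0.10, -0.01, 0.08, 0.26 and 0.18, with 2 of 9 uptake genes higher (Fabp5 and Dbi) and 1 of 12 oxidation genes lower (Acad11), against 5.28% higher and 0.322% lower of all genes. Elsewhere 3 genes of these lists and of the respiratory chain passed the fold, Ndufa4 higher and Esrrg lower in oligodendrocyte-like and Pex5l lower in astrocyte-like nuclei. These names were picked after their values had been seen. In microglia-like nuclei, 3 other peroxisomal lipid genes and 2 other oxidation genes had enough UMIs, with medians of 0.15 and -0.19 and none past the fold. The sum over all 19 other peroxisomal lipid genes in microglia-like nuclei had a log2 ratio of 0.12 (-0.04 to 0.28), and that over the 14 other peroxins -0.03 (-0.23 to 0.17).

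In the nuclei that stayed unnamed, Slc25a4 was higher in OLE too. In Spag5-led nuclei it was at 167 ppm (157 to 177) and 230 ppm (220 to 239), but most vehicle and most OLE nuclei of this kind are in different clusters, with median UMIs of 2362 and 4737, so that library and cluster cannot be told apart there. It was in the Fth1-led nuclei at 255 and 305 ppm, and in the unnamed nuclei with many UMIs at 31.6 and 55.2 ppm. Hsd17b4 was level in Spag5-led (57.8 and 58.3 ppm) and Fth1-led nuclei (116 and 123 ppm). In vascular leptomeningeal-like nuclei (87 and 85 nuclei) it was at 88.6 ppm (67.5 to 114) and 160 ppm (131 to 192), a log2 ratio of 0.85 (0.38 to 1.33), near the microglial one.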

How the data were processed

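The data are 2 libraries of nuclei. Per the labels and the study's methods, the authors used 10X 3′ v3 chemistry, aligned reads to the mm10 pre-mRNA reference with Cell Ranger 3.0.1 (the file headers give a later patch version), and deposited whole-number UMI counts per gene and nucleus without normalization. Their later analysis in Seurat 4.0.4 was not used. Introns are counted, so a level reflects unspliced and spliced RNA of the nucleus and grows with gene length.

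Doublets were scored per library with Scrublet (scanpy 1.11.5). Its automatic threshold called 0.104% of vehicle and 0.130% of OLE nuclei, so nuclei above the 95th percentile of scores were left out (331 and 289). SCTransform (version 0.4.2, through Seurat 5.3.0 in R 4.3.3) was run on all genes with 3000 variable genes kept. Of the 36 members, 10 were among these and were taken out before the principal components. Louvain clustering followed (30 components, 20 neighbours, resolution 0.4). Microglia-like nuclei were split further with 15 components and a resolution of 0.3. A marker was raised at 4 times its level in the 10th percentile of clusters and in at least 10% of nuclei. A name needed 3 raised markers. A cluster stayed unnamed where another class had more markers in its top 10 genes, where it had under 2 of its own there and at least 50% of another class raised, or none there and few UMIs. This rule is a second version, written once the clusters were known. A first version, with the 25th percentile, gave 3700 oligodendrocyte-like and 2712 glutamatergic-like nuclei in place of 1115 and 3507, since it named low-UMI nuclei oligodendrocyte-like.

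UMIs were summed per library and type, scaled per 1000000, and compared as log2(OLE/vehicle) with no pseudocount. With 1 library per group no test was run. Intervals are exact Poisson for sums, exact binomial (Clopper-Pearson) for ratios and shares and Newcombe's combination of both shares' exact limits for their differences, at 95%, and cover counting error only. Ratios were read at 100 UMIs or more over both libraries, and counted at 1.5-fold. Genes named are members past that fold, the highest and lowest ratio per type, members at least 4 times the median of other types in both libraries, Hsd17b4, Ucp2, Slc25a4 and Slc25a5, and other pathway genes past the fold with 200 UMIs, and some members further were named after their values were seen. The members and lists were chosen with earlier results of these data known. Of the gene identifiers, 99.6% matched GENCODE vM21. Start windows are from RefSeq (33 of 36 members). Python 3.11.15 (pandas 2.3.3, scipy 1.17.1, numpy 2.4.6, matplotlib 3.10.9) was used throughout, and the ratio step was tested on simulated data. Alternatives changed the doublets, normalization, features, resolution, scaling, depth of nuclei, filters and naming rule one at a time.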

Additional observations from a re-analysis of the deposited data

Results flagged for a closer look

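Hadha was marked because its direction parted between cell types. Its log2 ratio of OLE to vehicle was 0.22 (0.09 to 0.34) in glutamatergic-like nuclei, and the astrocytic value was -0.75 (-1.32 to -0.19). The difference between these cell types was not tested, since each condition is 1 library.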

How the results depend on the processing

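The sums, share differences and counts were recomputed under each alternative, and 251 of these values stayed within the counting interval of the reported one (or within 1.5 times, for counts), 22 lay outside, and 3 whose interval had excluded 0 changed direction. Other values whose interval included 0 also changed sign, among them share differences. No paired analysis was possible because each condition has 1 library. The peroxisomal sum in glutamatergic-like nuclei (0.07) was -0.0018 with the median of all genes set to 0 and -0.0037 with nuclei thinned to 1000 UMIs, and the mitochondrial sum was 0.0216 with that median at 0 and 0.19 without its most counted member, Etfa, with a share difference of -2.20 points without the most counted members. Thinning leaves few UMIs (22 and 24 of Slc25a4 in GABAergic-like nuclei) and weights every nucleus equally, and which of the 2 matters was not tested. It gave -0.20 for the peroxisomal, 0.23 for the mitochondrial and 0.0421 for the carrier sum and -7.44 points for the share in GABAergic-like nuclei, 0.12 for the carrier sum in oligodendrocyte-like, -0.0179 and 0.78 for the peroxisomal and carrier sums in OPC-like, and -0.31 for the peroxisomal sum in astrocyte-like nuclei. The peroxisomal sum in microglia-like nuclei was 0.46 without Abcd2, and the sum without Hsd17b4 was not taken. Of pairs of member and cell type, 6 were higher and 2 lower in OLE. The counts were 15 and 4 at 50 UMIs and 20 and 6 at the lower of the folds tried. The share of all genes past these other limits is not given, so these counts cannot be read against it. After thinning the counts were 0 and 1, but none of the reported pairs kept 100 UMIs, so thinning could not test them. The lower pair there was Abcd3 in glutamatergic-like nuclei, on 65 and 42 UMIs. At 200 UMIs the lower count was 0, a limit that neither Hadha nor Hadhb reached in its cell type. The lower count was 1 without doublet removal and 1 without the glial nuclei richest in glutamatergic markers. It was 5 with the first naming rule, added after the data had been seen. With that rule, which added a Spag5-led cluster of mostly vehicle nuclei, the carrier sum in oligodendrocyte-like nuclei was -0.0775 and Slc25a4 there -0.0883. For Hsd17b4 in microglia-like nuclei the alternatives gave 0.94 to 1.04, and for Acadl in glutamatergic-like nuclei 0.28 (thinned) to 0.88. Depth limits the glial values most: 30 of 36 members had under 100 UMIs in microglia-like nuclei.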
